A study of Arabidopsis thaliana with 2 samples.

Results

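The genes described here are the cyclins, the cyclin-dependent kinases (CDKs) that cyclins switch on, the inhibitors that hold these kinases in check, and 3 partners of the division programme in Arabidopsis thaliana. The rule for membership names gene families and uses no measured value, but the members and their phase classes were set with earlier results of these data known. They comprise the A, B and D cyclins listed below, CDKA;1 and the 4 CDKB kinases, inhibitors of the KRP and SIM types, the transcription factors MYB3R1 and MYB3R4, and KN, the syntaxin of cell plate formation. That gives 41 of the 27416 genes in the deposited table, and all 41 were matched by identifier. The 2 libraries came from Columbia seedlings at day 10 after germination. One library was the untreated control, and the other came from seedlings given flg22, a peptide of bacterial flagellin at a final 1 µmol/L over 4 h, which plants sense through FLS2. Both groups were wild type, and in each of them 3 biological replicates had been pooled before sequencing.

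With 1 library per group no test of the treatment is possible, and no p-value was computed. Library totals over all genes were 21414567 reads (control) and 24621440 reads (flg22). Values are given first for the control library (untreated) and then for the flg22 library (treated). Levels are deposited RPKM, which is reads scaled to gene length and to the library total. The log2 ratios compare flg22 with control after adding 1 RPKM. A filter required a 2-library mean of 1 RPKM or more, which 37 members reached and 4 did not. Folds are ratios of reads, each scaled to its library total, without a constant. The range after each fold is its exact 95% counting interval (Clopper-Pearson). Such an interval covers counting error in these libraries and says nothing about variation between plants. FRK1, a receptor-like kinase gene used as a marker of flg22 perception, was at 1.01 RPKM untreated and 85.7 RPKM treated, in the direction of the labels. The receptor gene FLS2 was at 22.3 and 28.2 RPKM.

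As background, D cyclins bound to CDKA;1 relieve the retinoblastoma-related repressor RBR1 and so open the way from G1 into DNA replication. A3 cyclins serve in S phase. A2 and B cyclins with CDKB kinases act in G2 and mitosis, where many genes carry the mitosis-specific activator (MSA) element and are regulated by MYB3R factors. KRP proteins, relatives of the mammalian Kip inhibitors, and SIM-type proteins inhibit the kinases, and SIM-type proteins are known for promoting endoreduplication, in which DNA is copied without division. In seedlings these genes are active mainly in meristems, young leaves and the stomatal lineage. Lower values in seedlings can therefore mean fewer cycling cells or less RNA per cell, and these cannot be told apart here.

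Across the 41 members, CYCD1;1 had the lowest ratio and the inhibitor KRP6 the highest. Of the 37 members past the filter, 2 were at least 2-fold lower with 1 RPKM added, CYCD1;1 and CYCB1;4, against 8.27% of all genes past it. One member, KRP6, was at least 2-fold higher, against 11.3% of all genes. The count of lower members depended on the added constant. Without it 6 of the 37 were at least 2-fold lower, against 11.3% of all genes, and KRP6 was again the one past 2-fold higher, against 13.3%. At a 1.5-fold limit, with 1 RPKM added, 17 of the 37 were lower, against 18.7% of all genes, and 2 were higher, against 19.4%. The median log2 ratio of the 37 was -0.45, while that of all 18724 genes past the filter was -0.03. Centring all ratios on reference genes shifted the log2 ratios by up to -0.17. The 2-fold counts were then 1 higher and 4 lower among the members, and 1787 higher and 2019 lower among all genes in place of 2111 and 1548.

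**Figure D1:**
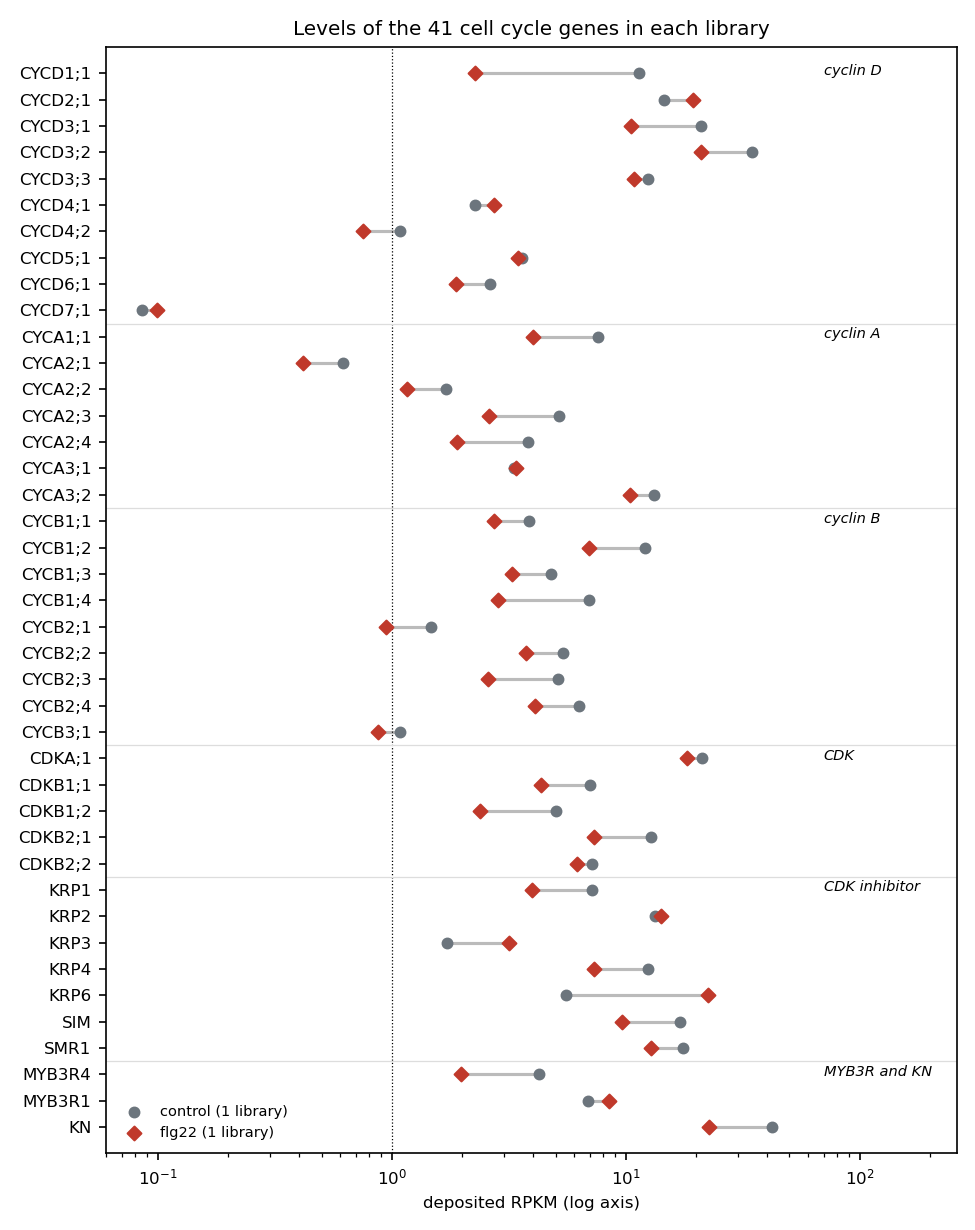
Deposited RPKM on a log axis for each of the 41 genes in the control library (circles) and the flg22 library (diamonds), grouped by family, with a dotted line at 1 RPKM. KN, at 42.0 and 22.6 RPKM, was the most abundant in the control library, and KRP6 and CYCD1;1 show the widest gaps, in opposite directions.

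**Figure D2:**
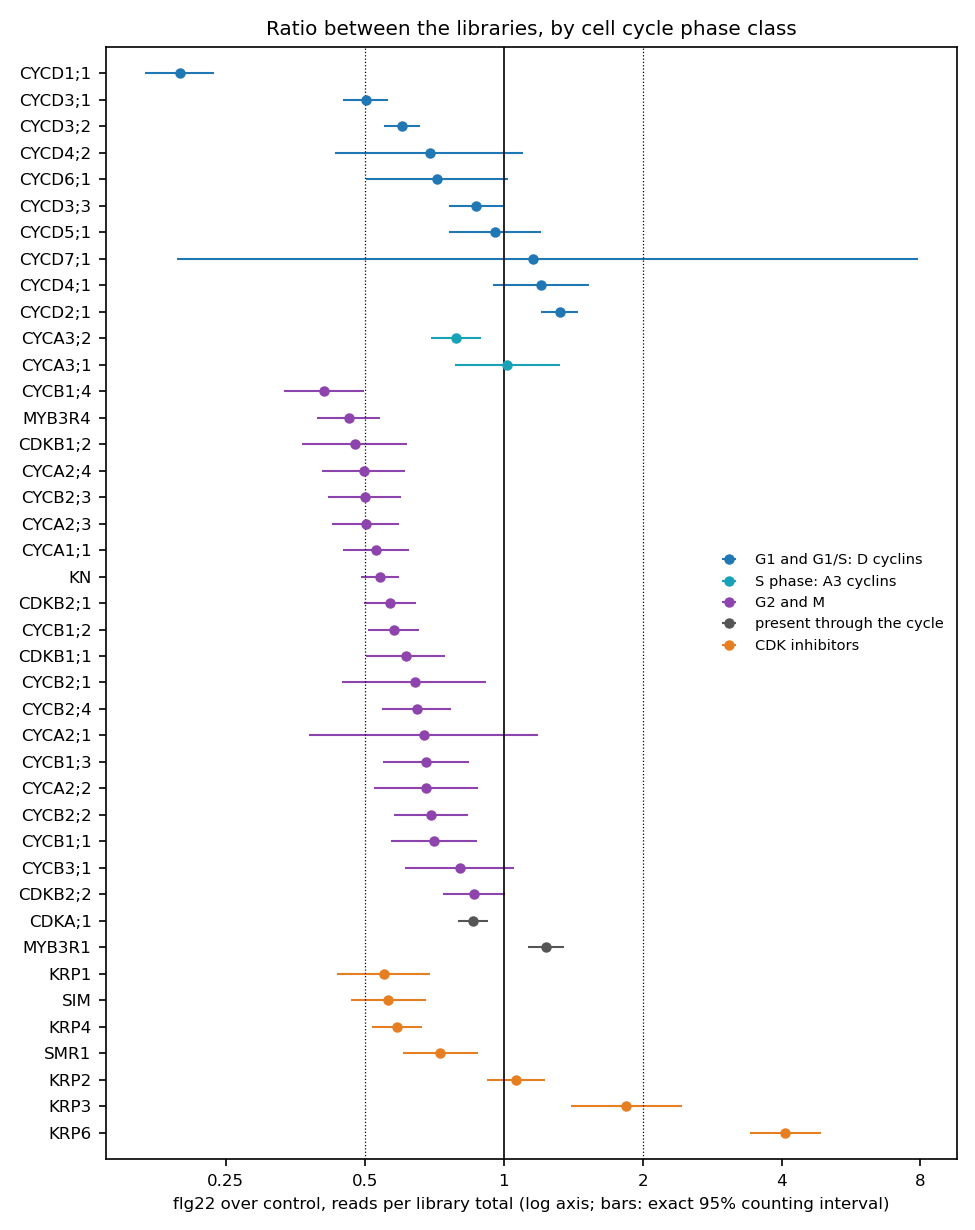
Ratio of flg22 to control on a log axis for each gene, sorted within cell cycle phase class; bars are exact 95% counting intervals and dotted lines mark 2-fold. All 20 genes of the G2 and M class lie below 1, while the D cyclins and the inhibitors lie on both sides.

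Among the D cyclins, which link growth signals to entry into the cycle, 7 of 10 had lower values in the flg22 library and 3 had higher ones. Of all genes with reads in either library, 51.4% were lower. CYCD1;1 (AT1G70210) had 722 reads untreated and 165 treated, or 11.4 and 2.26 RPKM. It was 5.03-fold lower (4.24 to 5.99), a log2 ratio of -1.92, and 1.76% of all genes past the filter had a ratio as low or lower. In the authors' deposited table its log2 fold change was -2.29 with a false discovery rate of 0.907, the lowest of any member. That comparison also rests on 1 library per group. An annotated gene on the other strand overlaps CYCD1;1 by 144 bases and was listed at 0 reads in both libraries.

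The D3 cyclins, known for keeping leaf cells dividing and for responding to cytokinin, differed among themselves. CYCD3;1 (AT4G34160) was at 20.9 RPKM untreated and 10.5 treated, 1.99-fold lower (1.78 to 2.23). Its neighbour AT4G34150 lies on the same strand, overlaps it by 40 bases and had higher values, at 14.8 and 114 RPKM. The part of shared reads was not tested. CYCD3;2 (AT5G67260), the most abundant D cyclin in both libraries, was at 34.6 and 20.8 RPKM, 1.66-fold lower (1.52 to 1.81). CYCD3;3 (AT3G50070) differed least, at 12.4 and 10.8 RPKM, with 437 and 438 reads from libraries of unequal total. It was 1.15-fold lower (1.002 to 1.31).

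CYCD2;1 (AT2G22490), a sucrose-responsive D cyclin, was the clearest of those with higher values, at 14.6 RPKM untreated and 19.3 treated. Its ratio was 1.32-fold higher (1.20 to 1.45). CYCD4;1 (AT5G65420) had 122 and 169 reads, and its interval, 0.949 to 1.53, includes equality. Equality also lay inside the intervals of CYCD5;1 (AT4G37630), with 148 and 163 reads, and of CYCD4;2 (AT5G10440), with 44 and 35. CYCD6;1 (AT4G03270), a cyclin of formative root divisions, had 74 and 61 reads and an interval for lower values of 0.980 to 1.99. A gene on the opposite strand, AT4G03260, overlaps CYCD6;1 by 847 bases and had 2135 and 3298 reads, so the reads of this cyclin cannot be assigned with certainty. CYCD7;1 (AT5G02110), known from guard mother cells, had 3 and 4 reads, too few for a difference to be detectable at this depth. The last of these and the one with 44 and 35 reads did not pass the filter.

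Summed over the 10 D cyclins, the level was 103 RPKM untreated and 72.6 treated, a ratio of 0.701. The make-up of this sum differed between the libraries. CYCD1;1 took 10.99% of it untreated and 3.11% treated, moving from the fifth place among the D cyclins to the seventh. CYCD2;1 took 14.1% and then 26.6%. Without the former the sums were 92.1 and 70.3 RPKM.

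**Figure D3:**
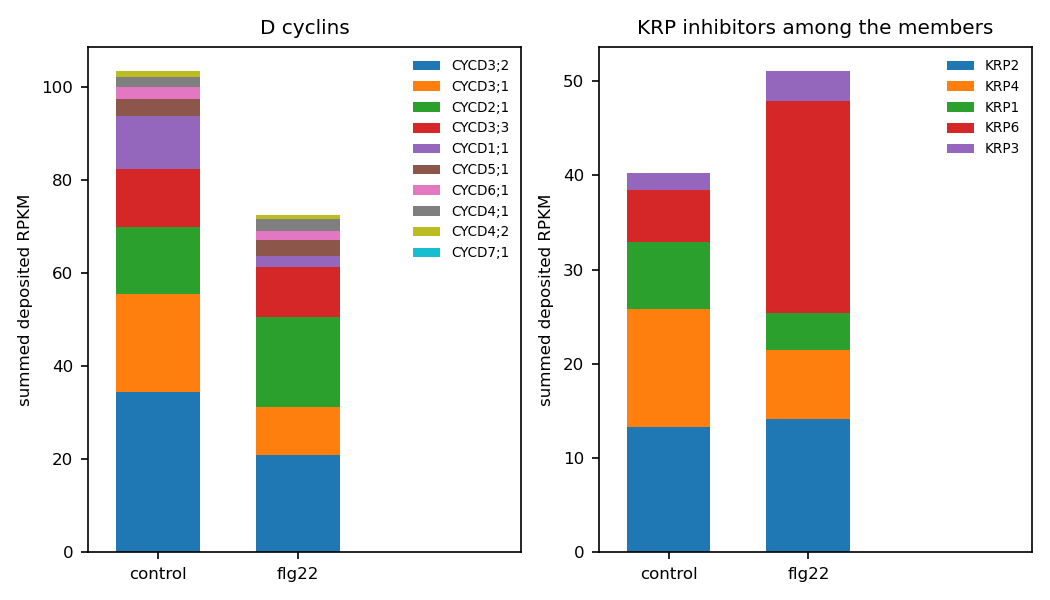
Stacked deposited RPKM of the 10 D cyclins (left) and of the 5 KRP inhibitors among the members (right) in each library. The D cyclin stack is shorter in the flg22 library, 72.6 against 103 RPKM, while the KRP stack is taller, 51.1 against 40.2 RPKM, with KRP6 as its largest part.

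Of the 2 A3 cyclins of S phase, 1 was nearly level and 1 was lower. CYCA3;1 (AT5G43080) was at 3.32 RPKM untreated and 3.38 treated, and the sign of its log2 ratio depended on the scaling. CYCA3;2 (AT1G47210), at 13.2 and 10.4 RPKM, was 1.27-fold lower (1.12 to 1.44). Genes of DNA replication itself gave similar values. None of the 21 replication genes past the filter, out of 22 listed, was past 2-fold in either direction with or without the constant. With it 80.5% of all genes were within 2-fold, and the median log2 ratio of the list was -0.12. By any size 18 of the 22 were lower and 4 higher, against 51.4% lower of all genes with reads in either library. The 6 subunit genes of the MCM helicase, which unwinds DNA at replication forks, had ratios between 0.785 and 0.995. The largest differences in that list were ICU2, the catalytic subunit of DNA polymerase alpha, with a log2 ratio of -0.42, ORC2 of the origin recognition complex, at 0.39, and TSO2, a small subunit of ribonucleotide reductase, at -0.36.

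All 20 members assigned to G2 and M had lower values in the flg22 library, by any size, whereas 51.4% of the genes with reads in either library did, and 51.8% of those past the filter. These 20 are CYCA1;1, the 4 A2 cyclins, the 9 B cyclins, the 4 CDKB kinases, MYB3R4 and KN. Their ratios ran from 0.408 to 0.862 with a median of 0.596, and no sign changed under any scaling or added constant tried. Their levels summed to 144 RPKM untreated and 82.8 treated. The median log2 ratio of the 18 past the filter was -0.72. With 1 RPKM added 1 of the 18, CYCB1;4, was past 2-fold lower, against 8.27% of all genes past the filter. Without a constant 5 were, against 11.3%, namely CYCB1;4, MYB3R4, CDKB1;2, CYCA2;4 and CYCB2;3. MYB3R1, which had higher values, was placed in another class, and the classes were drawn with such values known. The 20 genes come from the same 2 libraries and are not independent observations.

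Within this class the B cyclins, which drive entry into mitosis, were led by CYCB1;4 (AT2G26760), with 313 reads untreated and 147 treated. Its level was 6.97 and 2.85 RPKM, 2.45-fold lower (2.01 to 2.999). CYCB1;2 (AT5G06150), the most abundant B cyclin in both libraries, was at 12.1 and 6.97 RPKM, 1.73-fold lower (1.53 to 1.97). CYCB1;1 (AT4G37490), whose promoter is widely used to mark dividing cells and which also responds to DNA damage, differed less, at 3.85 and 2.73 RPKM or 1.41-fold lower (1.14 to 1.75). CYCB1;3 (AT3G11520) was at 4.79 and 3.25 RPKM. The intervals of the latter pair overlap, while the interval of CYCB1;4 lies wholly above both.

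In the B2 group, CYCB2;3 (AT1G20610) was at 5.14 RPKM untreated and 2.57 treated, with a fold at the 2-fold limit. CYCB2;4 (AT1G76310) was at 6.30 and 4.08 RPKM and CYCB2;2 (AT4G35620) at 5.36 and 3.73. Both lay within 2-fold and had overlapping intervals. The B cyclins with the fewest reads were CYCB2;1 (AT2G17620), with 76 and 56 reads, and CYCB3;1 (AT1G16330), with 116 and 107. The interval of the latter includes equality, and it did not pass the filter.

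Of the A cyclins of this class, CYCA2;3 (AT1G15570), which with CDKB1;1 restrains endoreduplication, was at 5.16 and 2.59 RPKM, 1.99-fold lower (1.68 to 2.35). CYCA2;4 (AT1G80370) was at 3.80 and 1.89 RPKM, 2.01-fold lower (1.63 to 2.48). The mitotic cyclin CYCA1;1 (AT1G44110) was at 7.61 and 4.02 RPKM, 1.89-fold lower (1.60 to 2.23). CYCA2;2 (AT5G11300) was at 1.71 and 1.16 RPKM. CYCA2;1 (AT5G25380), at 0.620 and 0.417 RPKM, stayed under the filter, and with 31 and 24 reads its interval includes equality.

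The kinases differed in the size of their ratios. CDKA;1 (AT3G48750), the only A-type CDK of Arabidopsis and present throughout the cycle, was at 21.2 RPKM untreated and 18.2 treated, 1.17-fold lower (1.08 to 1.26). Its plant-specific relatives of the B type had larger differences in 3 of 4 cases. CDKB1;2 (AT2G38620) was at 5.02 and 2.39 RPKM, 2.10-fold lower (1.62 to 2.74). CDKB2;1 (AT1G76540) was at 12.8 and 7.28 RPKM and CDKB1;1 (AT3G54180) at 7.05 and 4.33. CDKB2;2 (AT1G20930) stood apart from its near copy, at 7.16 and 6.17 RPKM, with 334 and 331 reads. It was 1.16-fold lower (0.994 to 1.35), close to CDKA;1, and its interval includes equality. The CDKB1 pair and the CDKB2 pair are close copies, so the division of reads within each pair is uncertain. All 4 CDKB genes overlap a neighbour on the other strand, by between 44 and 281 bases.

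Levels depend on the length used. The deposited length was nearer to the whole gene than to its exons for 25 of the 41 members, with a median of 1.20 times the joined exons in the RefSeq annotation of assembly TAIR10.1. Per kilobase of joined exons, CDKA;1 came to 43.9 untreated and 37.6 treated and was ahead of KN, at 38.8 and 20.9. The ratios without an added constant are not touched by the length.

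KN (AT1G08560), the KNOLLE syntaxin that fuses vesicles into the cell plate, was at 42.0 RPKM untreated and 22.6 treated, 1.86-fold lower (1.69 to 2.04). NPQ1, on the opposite strand, overlaps KN by 464 bases and was also lower, at 27.6 and 11.7 RPKM. Its part in the value of KN was not tested. SNAP33, the gene of a SNARE partner of KN that also serves in defence secretion, was 3.71-fold higher (3.47 to 3.97), at 21.5 and 79.8 RPKM, and led the list of mitosis and cytokinesis genes. With 1 RPKM added, the other 21 of 22 genes in that list were within 2-fold, against 80.5% of all genes. Without a constant 5 of them were past 2-fold lower, against 11.3% of all genes past the filter. These were the phragmoplast kinesin PAKRP1L, 2.33-fold lower (2.05 to 2.66), AT1G63100, a GRAS family transcription factor, 2.05-fold lower, and 3 named for passing this limit. The latter were POK1 and POK2, kinesins that orient the phragmoplast, 2.27-fold and 2.09-fold lower, and AT4G14330, 2.05-fold lower. By any size 19 of the 22 were lower, against 51.8% of all genes past the filter, and the median log2 ratio was -0.51.

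The 2 MYB3R genes among the members had opposite signs. MYB3R4 (AT5G11510), an activator of G2 and M genes, had 463 reads untreated and 246 treated, or 4.27 and 1.97 RPKM, 2.16-fold lower (1.85 to 2.54). MYB3R1 (AT4G32730), which acts as an activator or a repressor depending on its partners, was at 6.87 and 8.50 RPKM, 1.24-fold higher (1.13 to 1.35). Their counting intervals do not overlap.

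The MSA element gave a feature of the sequence to set beside these values. Its core was searched as AACGG on both strands in the 250 bases upstream of each annotated gene start. Of the 20 G2 and M members 11 held at least 1 match (55.0%), compared with 20.6% of 26709 protein-coding nuclear genes of the table. The E2F sites searched, TTTCCCGC, TTTCGCGC, TTTGCCGC and TTTGGCGC, occurred in none of the 20 and in 1.41% of all windows. In the replication list they occurred in 9 of 22. Members of the class with the MSA core had a median ratio of 0.641 (11 genes), and those without it 0.568 (9 genes). All 20 genes of the class lay below 1, so both sets did as well. The ranges of the sets overlapped, 0.462 to 0.862 with the core and 0.408 to 0.802 without it. The order of the medians depended on the list. In the mitosis and cytokinesis list it was the same, 0.646 with the core (14 genes) and 0.564 without (8 genes). Over all members it was reversed, 0.657 with the core (16 genes) and 0.692 without (25 genes). A link between the core and the ratio was not tested. A match of these letters is a description and not evidence of binding.

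The windows of 6 members are shown because they span the range of matches, with MSA core matches in capitals. They are read 5′ to 3′ along the gene's strand from assembly TAIR10.1 and end at the base before the RefSeq gene start. CYCB1;1 (chr4:17624309-17624558, minus strand) holds 3 matches and CYCB1;2 (chr5:1861704-1861953, minus strand) holds 4. KRP1 (chr2:9978091-9978340, minus strand), an inhibitor, holds 6, of which 2 adjoin. CYCB1;4 (chr2:11400868-11401117, plus strand), CYCD1;1 (chr1:26439306-26439555, plus strand) and KRP6 (chr3:6617952-6618201, minus strand), with the largest differences, hold none, and so have no capitals.
CYCB1;1: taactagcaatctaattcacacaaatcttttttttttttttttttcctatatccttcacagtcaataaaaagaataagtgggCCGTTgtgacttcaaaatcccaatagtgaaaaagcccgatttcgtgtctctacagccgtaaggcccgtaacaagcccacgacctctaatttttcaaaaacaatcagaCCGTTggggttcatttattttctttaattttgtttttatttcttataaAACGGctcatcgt
CYCB1;2: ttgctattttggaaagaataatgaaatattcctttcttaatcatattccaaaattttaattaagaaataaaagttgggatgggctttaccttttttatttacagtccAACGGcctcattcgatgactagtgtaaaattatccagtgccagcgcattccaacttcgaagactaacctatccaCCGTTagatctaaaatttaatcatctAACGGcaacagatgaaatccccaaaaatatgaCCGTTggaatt
KRP1: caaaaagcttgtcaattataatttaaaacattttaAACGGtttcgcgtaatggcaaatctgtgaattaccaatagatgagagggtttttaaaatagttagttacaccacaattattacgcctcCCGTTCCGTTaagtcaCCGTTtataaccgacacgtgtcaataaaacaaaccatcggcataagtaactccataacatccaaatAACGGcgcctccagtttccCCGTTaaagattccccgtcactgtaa
CYCB1;4: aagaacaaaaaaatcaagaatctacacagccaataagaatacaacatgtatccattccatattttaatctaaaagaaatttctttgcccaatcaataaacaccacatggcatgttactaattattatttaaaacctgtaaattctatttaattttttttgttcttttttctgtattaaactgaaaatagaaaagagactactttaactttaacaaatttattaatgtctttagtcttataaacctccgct
CYCD1;1: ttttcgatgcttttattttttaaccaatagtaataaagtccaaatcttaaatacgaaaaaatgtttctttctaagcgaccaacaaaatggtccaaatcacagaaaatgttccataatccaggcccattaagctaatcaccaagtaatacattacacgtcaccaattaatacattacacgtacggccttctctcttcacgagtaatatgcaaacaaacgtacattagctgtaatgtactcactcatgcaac
KRP6: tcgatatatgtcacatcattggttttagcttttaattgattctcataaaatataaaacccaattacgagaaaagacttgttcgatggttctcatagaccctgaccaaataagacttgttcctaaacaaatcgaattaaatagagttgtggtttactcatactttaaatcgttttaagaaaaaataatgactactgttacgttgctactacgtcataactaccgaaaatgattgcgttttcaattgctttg

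In the windows as printed, CYCB1;1 and CYCB1;2 each have a core close to the gene start, beginning 13 and 11 bases upstream, and another beginning 61 and 69 bases upstream. The W-box, the site known for WRKY factors and searched as TTGACC and TTGACT, was in neither the KRP6 nor the CYCD1;1 window, while 28.5% of all windows held it. No match says only that these letters are not in this window.

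**Figure D4:**
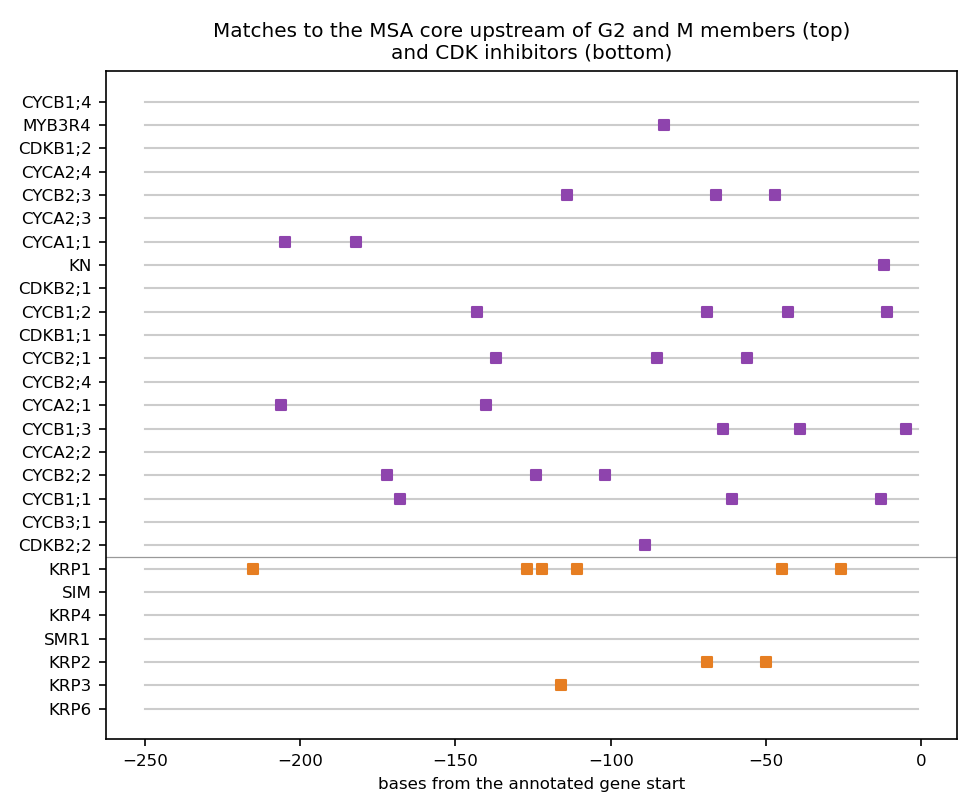
Positions of MSA core matches, in bases from the annotated gene start, in the 250 bases upstream of the 20 G2 and M members (top, from the lowest ratio to the highest) and the 7 CDK inhibitors (bottom, likewise). Matches occur in 11 of the 20 and in 3 of the 7, and the genes at both ends of the inhibitor order differ, with 6 matches for KRP1 and none for KRP6.

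The inhibitors differed in direction. Of 7, 4 had lower values in the flg22 library and 3 higher ones, and the median log2 ratio was -0.43. The count of lower ones is near the share over all genes with reads in either library, 51.4%. KRP6 (AT3G19150) had 159 reads untreated and 744 treated, or 5.52 and 22.5 RPKM, 4.07-fold higher (3.42 to 4.86). Its log2 ratio was 1.85, and 4.84% of all genes past the filter had one as high or higher. In the authors' deposited table KRP6 had a log2 fold change of 2.07 and a false discovery rate of 1. KRP3 (AT5G48820) was also higher, at 1.73 and 3.17 RPKM or 1.84-fold (1.40 to 2.43).

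KRP2 (AT3G50630), known for holding back lateral root initiation, was level at 13.3 and 14.2 RPKM, and its sign depended on the scaling. KRP1 (AT2G23430) was at 7.18 RPKM untreated and 3.95 treated, 1.82-fold lower (1.44 to 2.29). KRP4 (AT2G32710) was at 12.5 and 7.31 RPKM, 1.70-fold lower (1.51 to 1.93), although the oppositely placed neighbour that overlaps it by 926 bases, CB5-B, was higher, at 20.23 and 36.5 RPKM. The 2 KRP genes outside the members, KRP5 and KRP7, had higher values in the flg22 library. KRP5 was 2.93-fold higher (2.20 to 3.94), at 2.67 and 7.81 RPKM, and KRP7, picked out after its value was seen, was at 2.23 and 3.96 RPKM.

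The KRP pool had a different make-up in the 2 libraries. Over the 5 KRP members the sum was 40.2 RPKM untreated and 51.1 treated, and the share of KRP6 was 13.7% and then 44.0%. Without KRP6 the sums were 34.7 and 28.6 RPKM. Over all 7 KRP genes of Arabidopsis KRP6 took 12.2% and 35.8%. KRP2 was the most abundant KRP gene in the control library and KRP6 in the flg22 library.

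The SIM-type members, which favour endoreduplication over division, both had lower values. SIM (AT5G04470), known from leaf hairs, was at 17.1 RPKM untreated and 9.60 treated, 1.78-fold lower (1.47 to 2.15). SMR1 (AT3G10525), also called LGO and needed for giant cells of the sepal, was at 17.6 and 12.8 RPKM, 1.37-fold lower (1.14 to 1.66). Each overlaps an annotated gene of the opposite strand, by 338 and 375 bases, for which the deposited table holds no values. Among all 14 genes listed as SIM-type, 10 were lower by any size and 4 higher, against 51.4% lower of all genes with reads. None of the 12 past the filter was past 2-fold with 1 RPKM added, where 80.5% of all genes were within it. Without a constant 2 were past 2-fold lower, against 11.3% of all genes past the filter. SMR5, picked out after its values were seen, had 1 and 9 reads and did not pass the filter.

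In the RBR1, E2F, DP and CDK partner list, all 17 genes were within 2-fold after 1 RPKM was added, against 80.5% of all genes. The median log2 ratio of the list was -0.03. Without a constant 1 of the 17 was past 2-fold lower, against 11.3% of all genes past the filter. This was DEL2, an atypical E2F named for passing this limit, with 92 and 49 reads, 2.16-fold lower (1.51 to 3.12). The largest log2 ratios were those of CKS2, a small subunit that binds CDKs, with a log2 ratio of -0.70, DPA, a partner of E2F factors, at 0.65, and E2FC, an E2F known mainly as a repressor, at 0.61. All 7 regulators of the anaphase-promoting complex, which marks cyclins for destruction, were within 2-fold with and without the constant. With it 80.5% of all genes were. By any size 6 of the 7 were lower, against 51.8% of all genes past the filter, and the median log2 ratio was -0.43. The lowest were the inhibitor GIG1, at -0.74, and the activators CDC20.1 and CDC20.2, neighbouring near copies, at -0.65 and -0.61. Among the 21 cyclin, inhibitor and MYB3R genes outside the members, 16 passed the filter, with a median log2 ratio of -0.07. KRP5 was the one past 2-fold higher on both scales, against 11.3% of all genes past the filter with the constant and 13.3% without. None of the 16 was past 2-fold lower with 1 RPKM added, against 8.27% of all genes past the filter. Without a constant 2 were, against 11.3%. These were AT5G59360, an uncharacterised gene listed with the SIM type, 2.94-fold lower (1.67 to 5.38), and AT1G51355, annotated as SMR3-like, 2.12-fold lower (1.29 to 3.56).

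**Figure D5:**
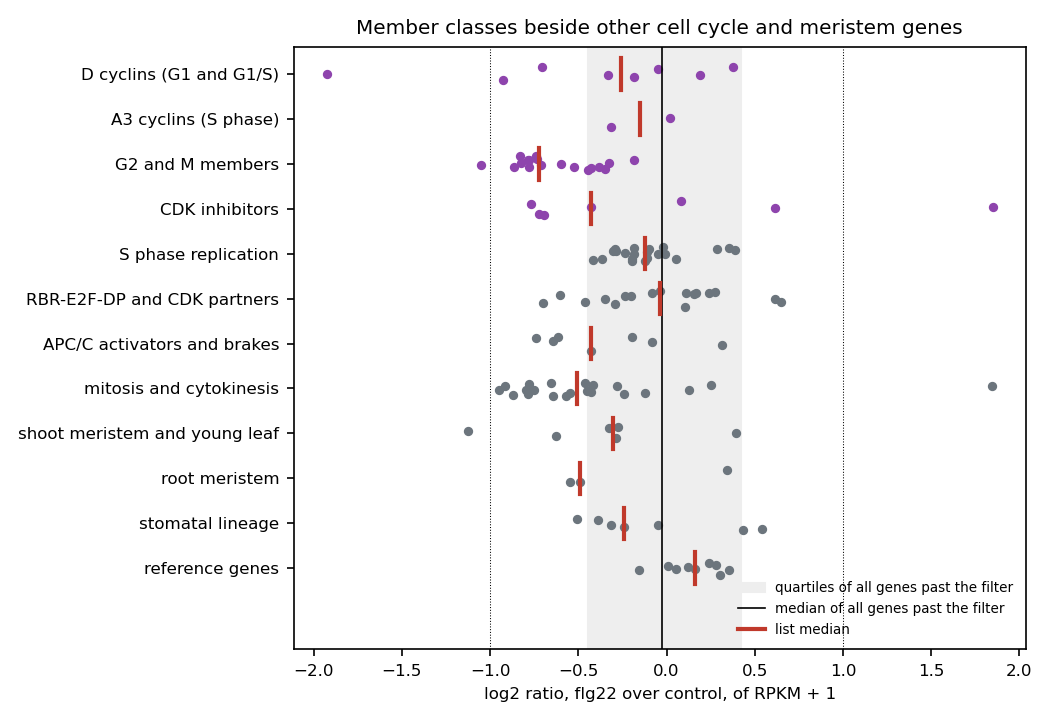
Log2 ratio of RPKM + 1, flg22 over control, for genes past the filter in the member classes (purple) and in other lists (grey), with list medians in red and the median and quartiles of all genes past the filter behind. The lower quartile of all genes is -0.44. Left of it lie the medians of the G2 and M members, -0.72, and of the mitosis and cytokinesis list, -0.51. The median of the root meristem markers, -0.49 over 3 genes, also lies left of it. That of the replication list, -0.12, lies within the quartiles.

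Markers of the tissues that hold dividing cells were set beside these values. For comparison, 51.4% of all genes with reads in either library were lower by any size. Of 8 shoot meristem and young leaf markers 7 were lower by any size, and their summed level was 75.4 RPKM untreated and 46.4 treated. The receptor kinase gene CLV1 made up most of that gap, at 38.3 and 17.01 RPKM. ANT was at 12.96 and 8.03 RPKM, and AIL6, the exception, at 3.88 and 5.397. The stem cell markers WUS and CLV3 are counted among the 7, but had 1 to 2 reads in each library, too few to give a direction. Of 5 root meristem markers 4 were lower, with sums of 29.8 and 21.1 RPKM, of which SCR and SHR formed the most, with log2 ratios of -0.49 and -0.54. Among those 4, 2 did not pass the filter, 1 of them with 52 reads in each library. WOX5, with 18 and 32 reads, was the higher one. The 8 stomatal lineage markers summed to 36.3 and 31.8 RPKM, with 6 lower and 2 higher, and 1 of the 6 did not pass the filter. TMM had a log2 ratio of -0.51, EPF2 0.54 and SPCH 0.43. The part of such tissues in the values of the members was not tested.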

How the data were processed

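Per the labels, total RNA of frozen seedlings was sequenced on an Illumina HiSeq instrument. The authors deposited 1 table with whole-number read counts, RPKM and a comparison of 2 libraries holding a fold ratio, a log2 fold change, a p-value, its −log10 and a false discovery rate, per the file headers. Among tools, the submitters' notes on processing list TopHat, Bowtie and DESeq, with build TAIR10. A further 3 columns of scaled means were not matched to a sample and were not used. The roles and versions of the tools and the counting rule were not stated in the labels. RPKM equalled reads over the deposited length and column total within 7.24e-06%.

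The log2 ratio of (flg22 + 1) to (control + 1) was taken from the deposited RPKM, for genes whose 2-library mean was 1 RPKM or more. Intervals (SciPy 1.17.1) cover counting error only. TMM factors (edgeR 4.0.16), other constants, filters, limits and scalings were tried. The steps were tested on simulated data. Without a statement on strand, reads of overlapping genes cannot be told apart. Members, lists and phase classes were chosen with earlier results of these data known. All members may be named. From every other list the 3 largest log2 ratios past the filter are. Beyond this rule, DEL2, POK1, POK2 and AT4G14330 are named for passing 2-fold without a constant. KRP7 and SMR5 were picked out after their values were seen. WUS and CLV3 are named for their few reads, and FRK1 and FLS2 as checks of the labels. Symbols and upstream windows come from RefSeq, TAIR10.1, whose name differs from the authors' build; gene starts are those of RefSeq.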

Additional observations from a re-analysis of the deposited data

How the results depend on the processing

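Under TMM scaling, median-of-ratios scaling and a total without the 10 most abundant genes, every count and median recomputed stayed within its limits. With 5 RPKM added, genes past 2-fold numbered 1392 higher and 830 lower, 1 member (CYCD1;1) was lower, and the median log2 ratio of G2 and M members was -0.39. A 1.5-fold limit gave 3637 genes higher and 3494 lower, and 2 members higher and 17 lower. With no added constant 6 members were lower: CYCD1;1, CYCB1;4, MYB3R4, CDKB1;2, CYCA2;4 and CYCB2;3, against 11.3% of all genes. With reference centring 4 were: CYCD1;1, CYCB1;4, CYCD3;1 and KN. At a mean of at least 5 RPKM, 21 members were left, 1 (CYCD1;1) was lower, and the D cyclin median was -0.70 over 5 genes. KRP6 and CYCD1;1 stayed past 2-fold under every alternative tried. The signs of CYCA3;1 and KRP2 changed with scaling, and those of the other 39 members did not. No paired analysis was possible because each group is 1 library. With pooled replicates, variation between plants is unknown. Reads per member ran from 3 to 1409 in the control library, so small ratios of weak genes are not resolved at this depth.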
